A study of Mus musculus with 6 samples.

Results

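The nuclear genes of oxidative phosphorylation were followed through 6 single-cell libraries of mouse colon. They were taken as every gene whose symbol starts with Ndufa, Ndufb, Ndufc, Ndufs, Ndufv, Uqcr, Cox4, Cox5, Cox6, Cox7, Cox8, Sdh or Atp5, which gave 98 of the 32285 genes in the count tables. Of these, 78 are called core subunits here. They are 38 of complex I, 4 of complex II, 8 of complex III, 11 of complex IV and 17 of complex V. The name is used for every member that is neither an assembly factor nor a single-tissue isoform, so it takes in accessory subunits and Cox7a2l. Another 12 are assembly factors (symbols starting Ndufaf or Sdhaf) and 8 are isoforms known from single tissues such as heart, muscle, testis or hypoxic lung. All 98 had at least 1 UMI (unique molecular identifier, one per captured RNA molecule) somewhere in the libraries.

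Oxidative phosphorylation takes electrons from NADH at complex I (NADH dehydrogenase) and from succinate at complex II (succinate dehydrogenase), passes them through complex III (the cytochrome bc1 complex) to complex IV (cytochrome c oxidase), and uses the proton gradient built on the way to make ATP at complex V (ATP synthase). Most subunits are encoded in the nucleus and imported, while a small set of catalytic subunits of complexes I, III, IV and V is encoded by the mitochondrial genome. Absorptive cells of the colon surface are known for oxidising the butyrate that gut bacteria make, whereas activated macrophages are known for a shift towards glycolysis.

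The libraries came from the colon of wild-type mice, with 1 library in each of 6 groups, so every comparison is between libraries and has no replicate check. Specific pathogen free (SPF) mice were untreated (day 0) or received dextran sodium sulfate (DSS), a chemical that injures the colon lining, for 2 or 7 days. Pseudo germ-free (pGF) mice received antibiotics for 4 weeks (day 0), and then antibiotics together with DSS for 2 or 7 days. In every group the tissue was stripped of epithelium with EDTA, treated with Liberase TL and DNase I, and flow sorted for CD45, the common leukocyte antigen, before a 10x Genomics 5' library was made. Strain, age, sex and the number of animals per library are not given in the sources used here.

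The libraries held between 23335071 and 52772901 UMIs in 1792 to 11629 barcodes, of which 1263 to 9608 cells were kept, and 870 of 39642 distinct barcodes appeared in 2 or more libraries. The SPF day 2 library stood apart: 61.1% of its barcodes were over the limit of 10% mitochondrial UMIs, against 6.41% to 28.1% in the others. Cells were clustered without the 98 genes and named from marker genes. At least 50 cells were required of a class in a library. Levels are in CPM, UMIs of a gene per 1000000 UMIs, both summed over the cells of a class in a library. A UMI tags 1 end of a molecule, so values were not divided by transcript length, and levels are compared between classes and libraries for a gene, not between genes.

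Although the cells were sorted for CD45, an epithelial class was present in every library. It held 122, 704 and 37 cells (SPF) and 113, 1053 and 71 cells (pGF) at days 0, 2 and 7, so SPF day 7 was left out of all epithelial values. In the remaining 5 libraries this class had UMIs for 13 of 13 epithelial markers, which summed to 21190 to 38285 CPM. Epcam stood at 1770 to 2425 CPM in it, and Ptprc, which encodes CD45, at 0.283 to 65.7 CPM. In T or NK cells Ptprc stood at 999 to 1417 CPM and in macrophages at 475 to 952 CPM, above the epithelial class. Plasma cells, which are known to carry less CD45 than other leukocytes, had Ptprc at 36.8 to 78.04 CPM. That range takes in the highest epithelial value, of pGF day 7. These are RNA counts and do not give the level of CD45 protein. The epithelial markers summed to 39.0 to 278.5 CPM in macrophages, 196 to 546 in T or NK cells, 56.7 to 183 in plasma cells and 48.3 to 426 in B cells.

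Promoters are shown for 1 gene per complex that is named again below and for Cox7a1, the isoform that marks the epithelial class. They set the letters of known regulators of these genes beside the measurements. The genes were chosen by hand, so they do not show how common the letters are. Each stretch runs from 180 bases before the RefSeq start site to 30 bases of the transcript, 5′ to 3′ on the gene's strand, in build GRCm38.p6. Capitals mark matches, on either strand, to GCGCANGCG (NRF1), CCGGAAG (ETS, the letters bound by GABPA) or AANATGGC (YY1). Overlapping NRF1 matches on opposite strands are run together. The regions are chr19:3912745-3912954 (minus strand), chr4:140961091-140961300 (plus), chr10:80406792-80407001 (minus), chr5:115348929-115349138 (minus), chr5:108434370-108434579 (minus) and chr7:30183991-30184200 (plus).
Ndufs8: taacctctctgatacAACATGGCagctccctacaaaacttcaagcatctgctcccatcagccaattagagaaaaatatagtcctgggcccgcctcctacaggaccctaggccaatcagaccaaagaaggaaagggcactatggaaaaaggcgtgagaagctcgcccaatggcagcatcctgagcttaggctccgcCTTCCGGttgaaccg
Sdhb: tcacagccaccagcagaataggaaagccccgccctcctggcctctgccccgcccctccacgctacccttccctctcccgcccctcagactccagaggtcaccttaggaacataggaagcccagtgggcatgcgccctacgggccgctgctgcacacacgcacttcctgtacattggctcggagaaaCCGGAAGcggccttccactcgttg
Uqcr11: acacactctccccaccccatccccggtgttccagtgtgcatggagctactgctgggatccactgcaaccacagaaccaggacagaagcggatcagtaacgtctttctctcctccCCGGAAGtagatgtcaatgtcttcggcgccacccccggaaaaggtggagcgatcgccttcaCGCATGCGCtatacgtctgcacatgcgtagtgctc
Cox6a1: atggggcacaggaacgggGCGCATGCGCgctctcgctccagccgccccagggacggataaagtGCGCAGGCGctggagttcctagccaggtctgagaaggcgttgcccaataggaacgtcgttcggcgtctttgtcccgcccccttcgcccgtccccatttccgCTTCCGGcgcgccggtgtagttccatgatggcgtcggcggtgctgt
Atp5k: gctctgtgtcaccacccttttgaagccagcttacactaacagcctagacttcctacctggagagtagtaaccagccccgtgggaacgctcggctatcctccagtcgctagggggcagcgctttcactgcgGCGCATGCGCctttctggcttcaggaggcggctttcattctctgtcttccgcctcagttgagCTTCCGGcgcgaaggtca
Cox7a1: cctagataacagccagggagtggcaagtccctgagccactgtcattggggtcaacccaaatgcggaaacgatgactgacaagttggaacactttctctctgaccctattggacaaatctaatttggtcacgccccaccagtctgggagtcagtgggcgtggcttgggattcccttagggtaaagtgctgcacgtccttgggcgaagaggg

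Ndufs8 carries a YY1 match upstream and an ETS match inside the transcript start, Sdhb an ETS match just after its start, and Uqcr11, Cox6a1 and Atp5k both NRF1 and ETS matches. None of these letters stands in the Cox7a1 stretch, which says only that they are not in this window. The RefSeq table held promoters of 250 bases before to 50 after a start for 79 of the 98 genes, 84 promoters in all. NRF1 letters stood in 29.8% of them (25 of 84), against 6.25% of all 32851 promoters in the table. ETS letters stood in 26.2%, against 8.86%, and YY1 letters in 22.6%, against 6.05%. At least 1 of the 3 stood in 63.1% of the promoters of these genes and in 18.6% of all promoters. The motifs were spread unevenly over the complexes, on small counts. YY1 letters stood in 34.3% of complex I core promoters (12 of 35) and ETS letters in 11.4% (4 of 35). NRF1 letters stood in 41.2% of complex V core promoters (7 of 17, from 14 genes) and in 2 of 3 of complex II. Complexes III and IV had 5 and 9 core promoters. A match is a run of letters, and binding was not measured.

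Epithelial cells spent a larger part of their RNA on these genes than the 4 leukocyte classes measured, which were T or NK cells, monocytes and macrophages, plasma cells and B cells. Clusters of other leukocytes were not analysed here. The 98 genes took 6.85% of epithelial UMIs in SPF day 0, 6.77% in SPF day 2, 6.77% in pGF day 0, 7.89% in pGF day 2 and 6.72% in pGF day 7. In T or NK cells the share was 2.30%, 2.53% and 2.34% (SPF) and 2.30%, 2.43% and 2.21% (pGF) at days 0, 2 and 7. In monocytes and macrophages it was 1.57%, 1.88% and 1.82% (SPF) and 1.36%, 2.08% and 2.04% (pGF). In plasma cells the share was 1.20%, 1.34% and 0.941% (SPF) and 1.20%, 1.52% and 1.11% (pGF). B cells gave 1.61% in SPF day 7, 1.79% in pGF day 2 and 1.62% in pGF day 7. The lowest epithelial share was thus above the highest of each of these 4 classes. The order epithelial, T or NK, macrophage, plasma was the same in each of the 5 libraries with an epithelial class, and B cells, where measured, stood between macrophages and plasma cells.

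**Figure D1:**
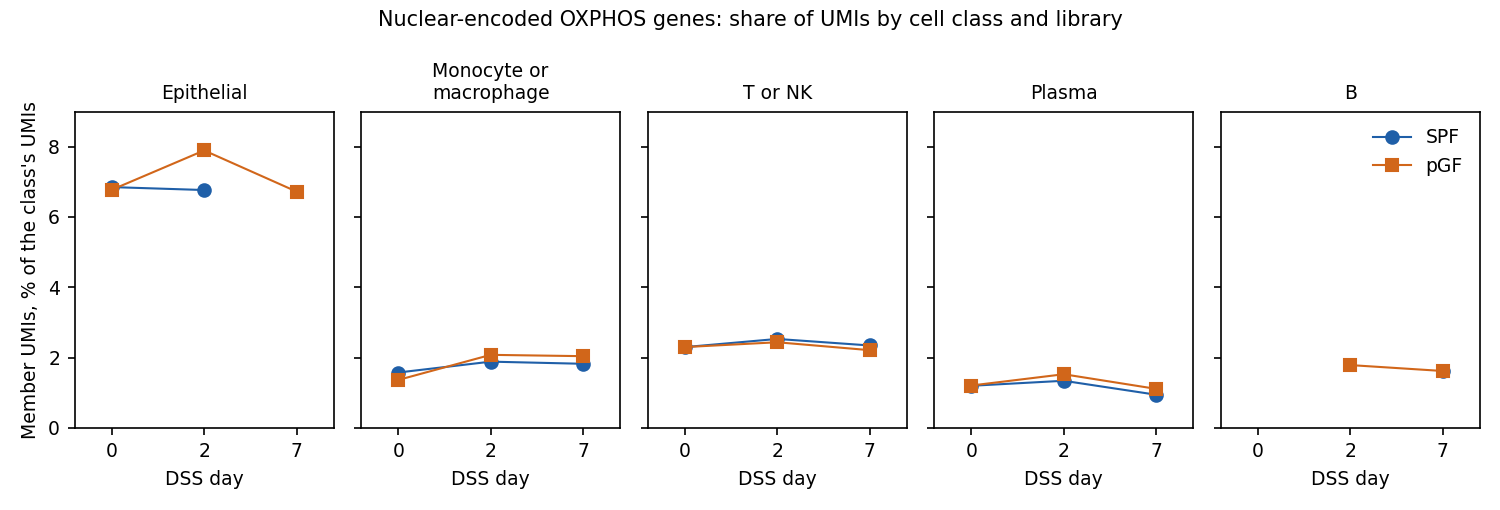
Share of each class's UMIs that fell on the 98 genes (vertical axis, percent), by DSS day, for SPF and pGF libraries; each point is 1 library and lines join libraries of an arm. Epithelial points lie between 6.72% and 7.89%, above every leukocyte point, and the pGF day 2 epithelial point is the highest.

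The class differences were present in the median cell. The median epithelial cell gave 6.13% to 7.10% of its UMIs to these genes in the 5 libraries, the median T or NK cell 2.19% to 2.45%, and the median macrophage 1.31% to 2.12%. Depth differed between these classes, with a median of 8881 to 30931 UMIs per epithelial cell and 2421 to 5588 per T or NK cell. Among epithelial cells the share also differed by cluster. In pGF day 2 it was 8.28% in the cluster led by Car1, a gene of absorptive cells, 7.92% in a second large cluster (31.2% of the class), 5.996% in the cluster led by Muc2, the mucin of goblet cells, 4.797% in a cluster of a median of 1100 UMIs per cell and 3.60% in one of 1491 (135 cells, 12.8% of the class).

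The place of plasma cells depended on what the UMIs were counted against. Immunoglobulin, mitochondrial and haemoglobin genes took 54.7% to 68.7% of plasma cell UMIs, but 1.42% to 11.4% in macrophages and 1.79% to 3.21% in T or NK cells. Per 1000000 of the other UMIs, the 98 genes summed to 28089 to 33943 CPM in plasma cells, and plasma cells then stood next to epithelial cells in each of the 5 libraries. In SPF day 7, which had no epithelial class of sufficient size, they were the highest.

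The epithelial excess covered nearly all core subunits. Against T or NK cells, 77 of 78 core subunits were higher in the epithelial class in each of the 5 libraries on the log2 (CPM + 10) scale, and the exception, Cox7a2l, lay between -0.16 and 0.40. Cox7a2l encodes a factor that joins complexes III and IV into supercomplexes. Of the genes measured (at least 10 CPM in 1 of the classes), 75 of 90 were at least 1.5-fold higher in the epithelium in SPF day 0, where 30.3% of all genes were. The counts were 76 of 91 in SPF day 2 (27.4% of all genes), 74 of 90 in pGF day 0 (28.6%), 80 of 91 in pGF day 2 (29.3%) and 79 of 89 in pGF day 7 (29.6%). None was 1.5-fold lower in any of the 5. The members' median difference was 1.31 to 1.63, and the median of all genes -0.20 to -0.10. Against macrophages 78 of 78 core subunits were higher in every library, where the median of all genes was 0.08 to 0.28. In SPF day 0, 5677 of 9284 genes were above 0 in that comparison. Against plasma cells 77 of 78 core subunits were higher in every library, the exception being Ndufa4. The count against plasma cells has to be read beside the genes at large, of which 84.5% to 87.8% were above 0 in that comparison, with a median of 0.88 to 1.03 when immunoglobulin, mitochondrial and haemoglobin genes are set aside. Those genes fill most of the plasma cell total. With them also left out of the total, an alternative added after seeing the data, 74 of 78 core subunits were higher in epithelial cells in every library, and the members' median was 1.19 to 1.38 against 0.05 to 0.20 for all genes. The 4 others were Ndufa4, at -1.69 to -0.83, Ndufa1, at -0.80 to -0.45, Ndufs8, at -0.08 to 0.40, and Ndufb11, at -0.03 to 0.15, all of complex I by symbol.

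Complexes differed in the size of this excess over T or NK cells. The median log2 difference of complex III core subunits was 1.81 to 2.12, of complex IV 1.78 to 2.03, of complex II 1.54 to 2.04, of complex V 1.41 to 1.74 and of complex I 1.29 to 1.57. Genes of the TCA cycle and pyruvate entry, which feed electrons into the chain, had medians of 1.27 to 1.68, fatty acid oxidation genes 1.46 to 1.88 and glycolysis genes 1.11 to 1.48. The 13 mitochondrially encoded subunits had medians of 0.77 to 1.15 and mitochondrial ribosomal proteins 0.42 to 0.64. The assembly factors among the 98 genes stood lower still, with medians of 0.14 to 0.39. Adding 10 CPM pulls the ratios of low genes towards 0, so sets of unlike level are not on an equal footing. In pGF day 2 the assembly factor median of 0.38 lay below the median bounds of the plain CPM ratios, 0.43 to 0.87. Sdhaf2, which attaches the flavin to Sdha, lay between -0.43 and -0.15, and Ndufaf7, a methyltransferase for complex I assembly, between -0.48 and 0.10; both were picked after their values were seen.

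Among the members with the widest gaps, also picked after their values were seen, was Uqcr11, a small subunit of complex III. Its level in epithelial cells was 1055 CPM in SPF day 0, 1249 in SPF day 2, 1111 in pGF day 0, 1474 in pGF day 2 and 1382 in pGF day 7. In T or NK cells Uqcr11 stood at 168 to 257 CPM over 6 libraries, so the lowest epithelial value was above the highest T or NK value. Cox5a, a subunit of complex IV that faces the matrix, stood at 1662 to 2063 CPM in epithelial cells and at 271 to 428 CPM in T or NK cells.

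The balance of complexes within the core subunits differed between epithelial cells, plasma cells and the other classes. In epithelial cells complex IV took 32.4% to 33.4% of core-subunit UMIs and complex I 24.6% to 25.9%. In plasma cells the order was reversed, with 38.9% to 40.6% on complex I and 21.2% to 22.1% on complex IV. T or NK cells gave 31.1% to 33.8% to complex V, 28.1% to 30.0% to complex I and 26.3% to 27.5% to complex IV. Macrophages gave 28.1% to 31.9% to complex I, 26.0% to 28.4% to complex IV and 29.8% to 31.2% to complex V, and B cells were close to T or NK cells, with 28.6% to 29.8%, 25.4% to 27.3% and 31.1% to 32.2%. Complex II took 1.09% to 2.28% and complex III 8.82% to 12.2% in all classes. With complexes assigned by symbol prefix, epithelial and plasma cell ranges did not overlap with those of the other 4 classes for complexes I and IV. The shares follow UMIs, and the classes cannot be read as holding that much of each protein complex.

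**Figure D2:**
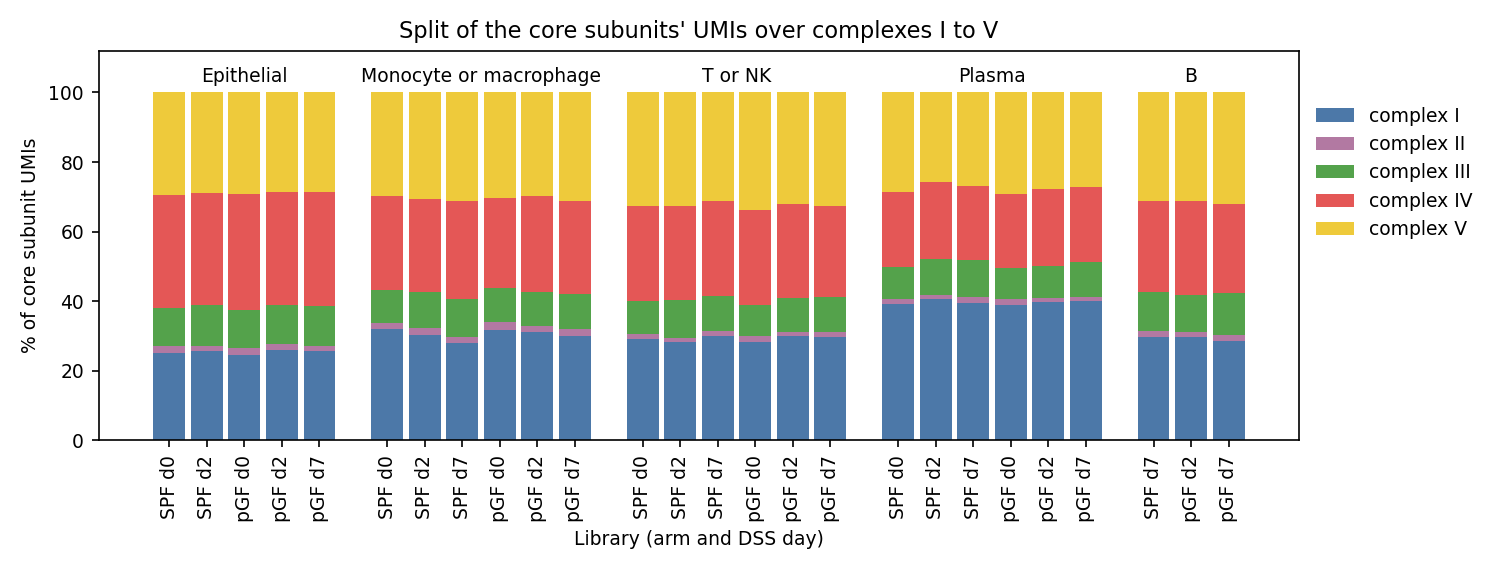
Percent of core-subunit UMIs that fell on complexes I to V, by class and library, with complexes assigned by symbol prefix. Complex IV is the largest part in epithelial cells (32.4% to 33.4%) and complex I in plasma cells (38.9% to 40.6%).

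The plasma cell share of complex I rested in part on Ndufa4. Its symbol places it in complex I, where it was first described, but its protein is now known as a subunit of complex IV. In plasma cells Ndufa4 stood at 722, 879 and 405 CPM (SPF) and 696, 932 and 553 CPM (pGF) at days 0, 2 and 7. In epithelial cells it stood at 504 to 812 CPM, in T or NK cells at 358 to 453, in macrophages at 294 to 365 and in B cells at 233 to 284. Per all UMIs it was the 1 core subunit that was not higher in epithelial than in plasma cells in each of the 5 libraries, and that difference ran from -0.46 to 0.42 on the log2 scale. With Ndufa4 counted in complex IV, plasma cells gave 32.9% to 35.1% to complex I and 25.8% to 28.6% to complex IV, against 23.8% to 24.9% and 33.4% to 34.1% in epithelial cells. Under that count the complex I share of plasma cells was the highest of the 5 classes, with no overlap with the others. Their complex IV range then overlapped those of B cells (27.2% to 28.9%), T or NK cells (28.1% to 29.2%) and macrophages (28.2% to 30.01%). Its hypoxia-linked paralogue Ndufa4l2 was at 0.520 to 2.26 CPM in plasma cells and at or below 0.834 CPM in the other classes.

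Against each of the 4 leukocyte classes, the member with the largest epithelial excess was an isoform. Cox7a1, the heart and muscle form of a complex IV subunit, stood in epithelial cells at 179 CPM in SPF day 0, 176 in SPF day 2, 208 in pGF day 0, 197 in pGF day 2 and 172 in pGF day 7. In T or NK cells it stood at 1.34 to 3.57 CPM, in macrophages at 1.62 to 5.19, in plasma cells at 0 to 1.003 and in B cells at 0 to 0.743. The leukocyte values rested on 1 to 115 UMIs per class over all libraries, against 8023 UMIs in epithelial cells. The liver-type form Cox7a2 was higher than in leukocytes by less: 1445 to 1682 CPM in epithelial cells, 484 to 654 in T or NK cells, 217 to 346 in macrophages, 146 to 277 in plasma cells and 240 to 310 in B cells. Cox7a2l was at 263 to 319 CPM in epithelial cells, 239 to 302 in T or NK cells and 197 to 309 in B cells, ranges that overlap, and at 138 to 201 in macrophages and 39.1 to 80.3 in plasma cells.

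**Figure D3:**
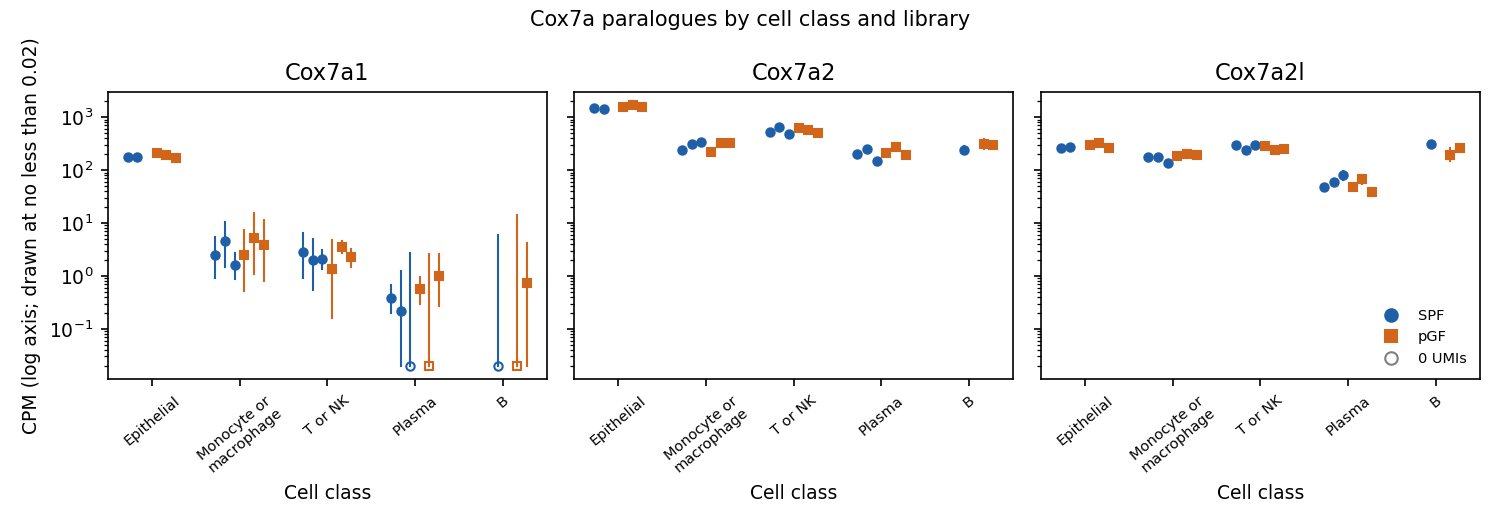
Levels of Cox7a1, Cox7a2 and Cox7a2l in CPM (log axis) by class; each point is 1 library, bars are exact Poisson 95% intervals of counting error, and open points are libraries with 0 UMIs, drawn at the foot of the axis. Cox7a1 lies at 172 to 208 CPM in epithelial cells and at or below 5.19 CPM in every leukocyte library, while the Cox7a2l ranges of epithelial, T or NK and B cells overlap.

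Other paralogue sets split between classes as well. Atp5g1, Atp5g2 and Atp5g3 encode the same ring protein of complex V behind different import signals. Atp5g1 stood at 1071 to 1316 CPM in epithelial cells and at 196 to 216 in T or NK cells, and Atp5g3 at 1943 to 2882 and 440 to 609. The epithelial Atp5g2 range of 640 to 935 CPM was closer to the 472 to 608 CPM of T or NK cells and the 395 to 532 CPM of B cells. Cox4i1, a subunit of complex IV, stood at 3486 to 3900 CPM in epithelial cells and 845 to 1048 in T or NK cells. It stood at 620 to 993 in macrophages, 751 to 867 in B cells and 386 to 564 in plasma cells. Its hypoxia-linked form Cox4i2 was at or below 2.58 CPM in all. Cox6a1, the widely expressed form of another complex IV subunit, stood at 1769 to 2297 CPM in epithelial cells, 353 to 552 in T or NK cells, 265 to 487 in macrophages, 274 to 348 in B cells and 188 to 426 in plasma cells. Cox8a stood at 2703 to 3804 CPM in epithelial cells and 1082 to 1377 in T or NK cells. The remaining single-tissue forms were sparse. Cox6b2, a testis form, was at 6.67 to 20.8 CPM in macrophages and 3.72 to 9.56 in epithelial cells, and Cox8b, Cox8c and Cox7b2 had at most 2 UMIs in any class. The muscle form Cox6a2 in macrophages was at 16.8 CPM in pGF day 7, from 13 UMIs, at 8.11 in SPF day 2, from 9 UMIs, and at or below 3.46 CPM in the other 4.

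The arms were then compared day by day. A value is the log2 ratio of pGF to SPF of (CPM + 10), for genes that reached 10 CPM in either library compared. The added 10 CPM pulls low genes towards 0, which bears on the medians and shares of all genes as well. A gene is counted as higher or lower when it differs by at least 1.5-fold, and the share of all measured genes past that line is given beside each count. Intervals are 95% intervals and cover counting error only. In all, 12 pairs of libraries had enough cells: the epithelial class at days 0 and 2, macrophages, T or NK cells and plasma cells at days 0, 2 and 7, and B cells at day 7.

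**Figure D4:**
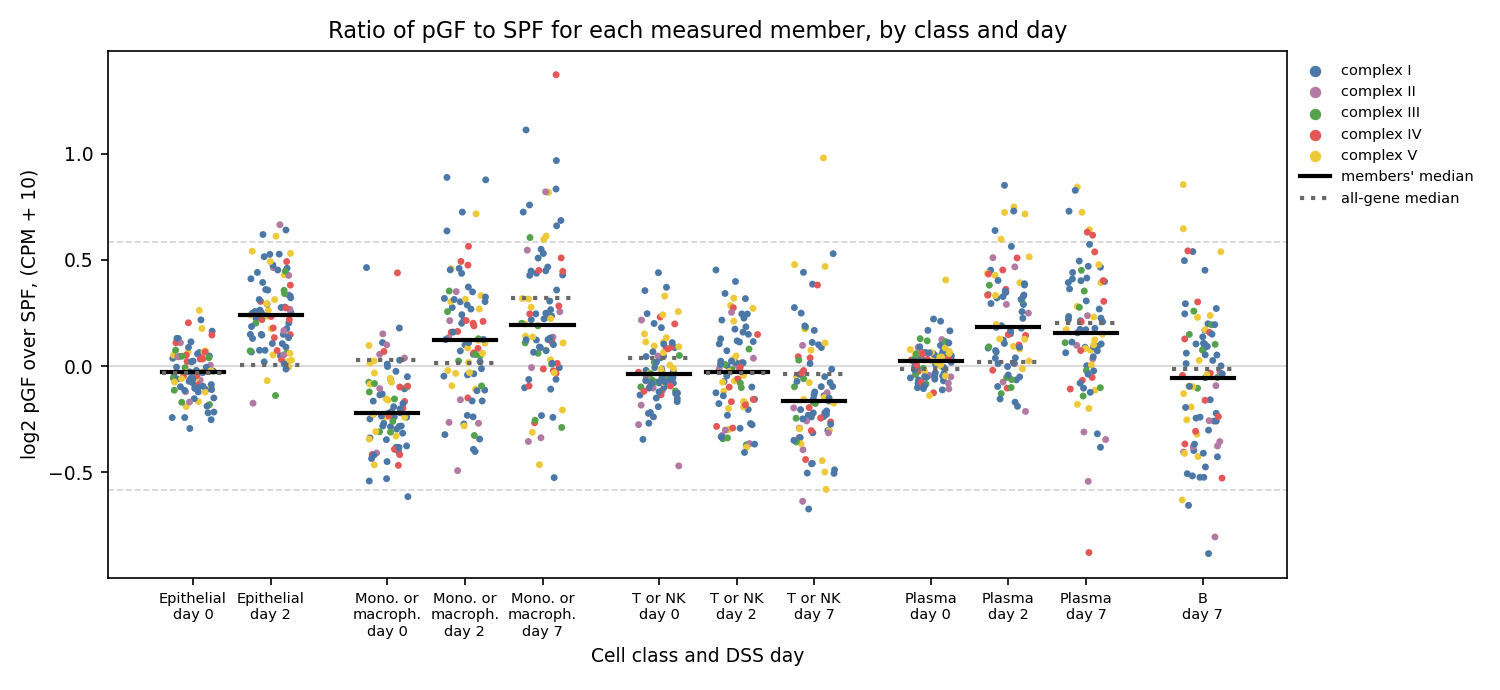
log2 ratio of pGF to SPF, on the (CPM + 10) scale, of each measured gene of the 98 by class and day; points are genes coloured by complex, solid bars their median, dotted bars the median of all genes, dashed lines 1.5-fold. In epithelial cells the points lie around 0 at day 0 and mostly above 0 at day 2 (86 of 91).

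Before DSS, antibiotic-treated and untreated libraries differed little in epithelial cells. The 98 genes summed to 67715 CPM in pGF against 68495 CPM in SPF at day 0, and the median log2 ratio was -0.03, the same as that of all genes. None of 90 measured genes was 1.5-fold higher and none lower, where 1.36% of all genes were higher and 1.89% lower. The highest ratio was that of Atp5k, subunit e of complex V, at 460 CPM in pGF and 382 in SPF, and the lowest that of Ndufb6, an accessory subunit of complex I, at 395 and 486 CPM.

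At day 2 of DSS the epithelial level of most nuclear subunits was higher in pGF, in each of the 5 complexes. The sum was 78920 CPM in pGF against 67657 CPM in SPF, a log2 ratio of sums of 0.22 (interval 0.22 to 0.23), and 86 of 91 genes were above 0. The median log2 ratio was 0.24, against 0.00 for all genes. By complex the medians were 0.26 for complex I (37 of 38 above 0), 0.16 for complex II (3 of 4), 0.22 for complex III (7 of 8), 0.22 for complex IV (11 of 11) and 0.24 for complex V (15 of 17). All 12 assembly factors were also above 0, with a median of 0.18. Few single genes passed 1.5-fold: 4 were higher, where 3.31% of all genes were, and none lower, where 2.21% were, so the count past the line was close to that of all genes and the difference lay in the shift of the whole set. Giving each cell equal weight, the median was 0.18, and in the Car1-led cluster alone 0.20.

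The 4 genes were Sdhb, Ndufv2, Ndufs8 and Atp5d. Sdhb, the iron-sulfur subunit of complex II, stood at 473 CPM in SPF day 0, 257 in SPF day 2, 451 in pGF day 0, 413 in pGF day 2 and 288 in pGF day 7, and was 1.59-fold higher in pGF at day 2. Ndufv2, an iron-sulfur subunit of the NADH-oxidising arm of complex I, stood at 377, 230, 350, 364 and 257 CPM in the same order. Ndufs8, an iron-sulfur subunit of the arm that leads to ubiquinone, stood at 210, 126, 200, 198 and 166 CPM. The SPF day 2 library had the lowest value of the 5 for all of these. Atp5d, the delta subunit of the rotor of complex V, likewise stood at 1354, 757, 1299, 1161 and 976 CPM. For Sdhb, Ndufs8 and Atp5d the pGF day 2 level was below both day 0 levels, and for Ndufv2 it was between them.

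The members furthest below 0 in the same comparison differed by less than 1.5-fold. Sdha, the catalytic subunit of complex II, was at 260 CPM in pGF and 295 in SPF, Uqcrh, the hinge subunit of complex III, at 1754 and 1932, and Atp5mpl, a small membrane subunit of complex V, at 1491 and 1565. Sdha and Sdhb are partners in one enzyme and lay at opposite ends of the day 2 ratios.

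By day within an arm, which uses the same libraries again, the epithelial median in pGF was 0.23 at day 2 over day 0 (75 of 91 above 0, all genes 0.07) and -0.25 at day 7 over day 2 (4 of 91 above 0, all genes -0.02). Day 7 over day 0 gave -0.01. Cytosolic ribosomal proteins moved the same way in pGF, with medians of 0.57 (76 of 78 above 0) at day 2 over day 0 and -0.41 at day 7 over day 2, as did mitochondrial ribosomal proteins, at 0.29 and -0.29. In SPF, day 2 over day 0 gave -0.06 (40 of 90 above 0, all genes 0.02), with cytosolic ribosomal proteins at 0.29 and mitochondrial ones at -0.20. The pGF day 2 library was therefore the one with the highest summed level, and day 7 rests on 71 cells.

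Other mitochondrial genes differed in direction in the epithelial day 2 comparison. Mitochondrial ribosomal proteins had a median of 0.35, with 71 of 78 above 0, and cytosolic ribosomal proteins 0.17, with 63 of 78 above 0. The medians were 0.01 for the TCA cycle and pyruvate entry, -0.06 for glycolysis and -0.01 for fatty acid oxidation. The 13 mitochondrially encoded subunits summed to 41579 CPM in pGF against 59063 CPM in SPF, with a median of -0.47 and 2 of 13 above 0. Mitochondrial UMIs made up 4.16% of epithelial UMIs in pGF and 5.91% in SPF, and the median UMIs per cell were 23332 and 17367. The part of these differences, and of the 61.1% of SPF day 2 barcodes over the mitochondrial limit, in the result was not tested. With the limit at 20%, the median of the 98 genes was 0.27. Markers of T cells in the epithelial class summed to 41.4 CPM in pGF against 5.13 CPM in SPF, and those of monocytes and macrophages to 68.3 and 60.6 CPM.

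In monocytes and macrophages the direction differed by day. At day 0 the sum was 13619 CPM in pGF against 15734 CPM in SPF, and 72 of 86 genes were below 0, with a median of -0.22 against 0.03 for all genes. The medians were -0.24 for complex I, -0.14 for complex III (8 of 8 below 0), -0.23 for complex IV and -0.16 for complex V, while complex II was at 0.08 (4 of 4 above 0). None was 1.5-fold higher, where 3.5% of all genes were, and 1 was lower, where 3.31% were. That gene was Ndufa11, a membrane-arm subunit of complex I, at 73.9 CPM in pGF against 118 CPM in SPF. Cox5a followed at 210 and 294 CPM, and Atp5g3 at 243 and 340 CPM. Plasma cell markers in this class summed to 15080 CPM in pGF against 42181 CPM in SPF, and their part in the result was not tested. With immunoglobulin, mitochondrial and haemoglobin UMIs left out of the total, the median was -0.28.

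At day 2 macrophages had 20766 CPM in pGF against 18829 CPM in SPF, a median of 0.12 (all genes 0.01) and 59 of 87 genes above 0. Of these 5 were 1.5-fold higher, where 12.7% of all genes were, and none lower, where 11.4% were, so the share past the line was below that of all genes. The highest ratio was that of Ndufs8, at 96.9 CPM in pGF (56 UMIs) and 47.8 CPM in SPF (53 UMIs). Ndufa12, a complex I accessory subunit, was at 100 and 56.8 CPM, and Atp5k at 178 and 105 CPM. Sdha was lowest, at 77.9 and 114 CPM. The mitochondrially encoded subunits ran the other way, with 0 of 13 above 0 and a median of -0.84. Plasma cell markers summed to 410 CPM in pGF against 6794 CPM in SPF. The makeup of the class differed too: the cluster led by Saa3 and Il1b held 39.2% of its cells in SPF and 7.44% in pGF. The 98 genes took 2.15% of UMIs in that cluster in SPF and 2.58% in pGF, and 1.75% and 2.04% in the C1q-led cluster, in which alone the median was 0.19. The part of markers and makeup in the result was not tested. In pGF the macrophage median was 0.55 at day 2 over day 0 (85 of 87 above 0, all genes 0.22), and in SPF it was 0.22 (63 of 87, all genes 0.24).

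At day 7 the macrophage result turned with the scaling. The sums were 20389 CPM in pGF against 18220 CPM in SPF, the median was 0.19 and 66 of 88 genes were above 0, but the median of all genes was 0.32. There were 13 genes 1.5-fold higher, where 31% of all genes were, and none lower, where 9.69% were. TMM scaling (trimmed mean of M-values) sets the typical gene to no change and moved this pair by 0.62. With it the members' median was -0.39, with 2 higher and 20 lower. The shares of all genes under TMM are not given here, so these counts cannot be set beside genes at large. In the C1q-led cluster alone the members' median was -0.32. That cluster made up 75.4% of the pGF cells of the class and 26.0% of the SPF cells, and the cluster led by Saa3 and Il1b 24.6% and 74.0%. Median UMIs per cell in the C1q-led cluster were 2713 in pGF and 1147 in SPF, and neutrophil markers in the class summed to 268 and 4428 CPM; their part was not tested.

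Single genes of this comparison were spread widely. Ndufaf8, an assembly factor of complex I, was at 77.4 CPM in pGF and 34.7 in SPF, Ndufc2, a membrane-arm subunit, at 248.8 and 135, and Sdha at 95.4 and 49.7. Ndufs4, an accessory subunit of complex I, was at 60.6 and 91.6 CPM, Atp5d at 214 and 299, and Atp5g3 at 384 and 479. TMM scaling and the C1q-led cluster put the typical member below 0, while the members' share in the Saa3-led cluster was higher in pGF. No direction is therefore given for the family here. Genes outside the family differed by more. The 14 glycolysis genes summed to 2117 CPM in pGF against 5641 CPM in SPF, with 12 at least 1.5-fold lower, and Atpif1, the inhibitor of the ATP synthase, was at 380 and 131 CPM.

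In T or NK cells the arms differed little at days 0 and 2. At day 0 the sums were 22976 CPM in pGF against 22963 CPM in SPF, the median was -0.04 (all genes 0.04), and none of 87 genes passed 1.5-fold, where 2.48% of all genes were higher and 2.11% lower. At day 2 the sums were 24348 and 25290 CPM, the median -0.03, as for all genes, and again none of 88 passed, where 4.48% of all genes were higher and 4.48% lower. The furthest at day 2 were Ndufs8, at 67.7 CPM in pGF and 46.8 in SPF, and, in the other direction, Atp5mpl at 428 and 561 and Uqcrh at 938 and 1216.

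At day 7 of DSS the T or NK level was lower in pGF by a small amount for most of these genes. The sums were 22097 CPM in pGF against 23431 CPM in SPF, 66 of 89 genes were below 0, and the median was -0.16 against -0.04 for all genes. The medians were -0.16 for complex I, -0.27 for complex II, -0.13 for complex III, -0.20 for complex IV and -0.15 for complex V. There was 1 gene 1.5-fold higher, where 3.93% of all genes were, and 2 lower, where 3.94% were, both under the share of all genes. Mitochondrial ribosomal proteins had a median of -0.24, with 6 of 78 above 0, glycolysis -0.31 and fatty acid oxidation -0.23, while the mitochondrially encoded subunits had 0.67, with 13 of 13 above 0. Neutrophil markers in the class summed to 15.6 CPM in pGF against 739 CPM in SPF. The makeup of the class also differed. Several clusters had Gzma, a granzyme of cytotoxic cells, as their leading gene. The one with Trdc among its top genes held 43.3% of the SPF cells and 8.32% of the pGF cells. The one with Cd8b1 among its top genes went the other way, at 9.52% and 15.0%, and the others held at most 1.40%. The cluster led by Ccr7 and Lef1, genes of naive T cells, held 2.55% and 10.9%. The 98 genes took 2.33% of UMIs in the Trdc cluster in SPF and 2.46% in pGF. Their share was 2.27% and 2.12% in the Cd8b1 cluster, and 1.82% and 1.64% in the Ccr7-led one. In the cluster that was the largest of the class over all libraries, taken alone, the share was 2.35% in SPF and 2.32% in pGF and the median was -0.09 (all genes 0.00). The part of markers and makeup in the result was not tested.

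The gene that was higher was Atp5md, a small membrane subunit of complex V. In T or NK cells it stood at 682, 698 and 346 CPM (SPF) and 684, 810 and 692 CPM (pGF) at days 0, 2 and 7, so SPF day 7 was the low library and the other 5 were close together. The day 7 ratio was 1.97-fold. The 2 lower genes were Ndufa12, at 60.5 CPM in pGF and 102 in SPF, and Sdhb, at 57.3 and 94.6 CPM. Sdhb in T or NK cells stood at 91.2, 64.7 and 94.6 CPM (SPF) and 87.6, 66.6 and 57.3 CPM (pGF), so pGF day 7 was the lowest. Atp5d just missed the line at 265 and 401 CPM.

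In plasma cells the arms were alike at day 0. The sums were 12038 CPM in pGF against 11960 CPM in SPF, the median was 0.02 (all genes -0.01), and none of 84 genes passed 1.5-fold, where 1.37% of all genes were higher and 2.2% lower. Atp5k was highest at 69.5 CPM in pGF and 50.1 in SPF. At day 2 the sums were 15248 and 13389 CPM, 67 of 84 genes were above 0, and the median was 0.19 (all genes 0.02). Complex V stood highest of the complexes, with a median of 0.33 and 16 of 17 above 0. Of the 7 genes 1.5-fold higher, where 8.77% of all genes were, 4 belong to complex V, and none was lower, where 7.1% were. The share past the line was thus close to that of all genes. Atp5o, of the peripheral stalk, was at 166 CPM in pGF and 94.7 in SPF, Atp5c1, the central shaft, at 127 and 72.9, and Atp5d at 183 and 107. Cytosolic ribosomal proteins had a median of 0.47 and the mitochondrially encoded subunits of -1.50, with 13 of 13 at least 1.5-fold lower. The pGF value rests on 73 cells.

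At day 7 the plasma sums were 11081 CPM in pGF against 9414 CPM in SPF, the latter from 68 cells. The median was 0.16, below the 0.20 of all genes, with 63 of 83 genes above 0, 7 genes 1.5-fold higher, where 15.8% of all genes were, and 1 lower, where 3.86% were. Fewer members than genes at large passed the line upwards. With immunoglobulin, mitochondrial and haemoglobin UMIs left out of the total the median was -0.16, with 1 higher and 7 lower, so the direction followed the total used. The shares of all genes under that total are not given here. Immunoglobulin, mitochondrial and haemoglobin genes took 60.6% of plasma UMIs in pGF and 68.7% in SPF. Atp5k was at 64.7 CPM in pGF and 31.7 in SPF and Ndufb1-ps, the table's symbol for a complex I subunit gene, at 110 and 57.4. Cox7a2l ran the other way, at 39.1 CPM in pGF and 80.3 in SPF. Over the 6 libraries plasma Cox7a2l stood at 47.0, 59.4 and 80.3 CPM (SPF) and 47.1, 66.9 and 39.1 CPM (pGF), so the day 7 libraries held both the highest and the lowest value.

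B cells could be compared at day 7 alone. The sums were 16173 CPM in pGF against 16053 CPM in SPF, the median was -0.05 (all genes -0.01) and 38 of 87 genes were above 0. There were 2 genes 1.5-fold higher, where 6.91% of all genes were, and 4 lower, where 8.34% were, both below the share of all genes. Atp5md was at 376 CPM in pGF and 203 in SPF and Atp5mpl at 406 and 256. Ndufab1, the mitochondrial acyl carrier protein, was at 63.9 and 126 CPM, and Atp5d at 182 and 287 CPM. Neutrophil markers in the class summed to 36.4 CPM in pGF against 1369 CPM in SPF.

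A few subunits of complex V recurred across classes. These were picked after their values were seen. Atp5k had a log2 ratio above 0 in 11 of the 12 pairs: 0.26 and 0.24 in epithelial cells at days 0 and 2, 0.02, 0.72 and 0.82 in macrophages at days 0, 2 and 7, 0.33 and 0.47 in T or NK cells at days 0 and 7, 0.40, 0.43 and 0.84 in plasma cells and 0.54 in B cells. The exception was T or NK cells at day 2, at -0.07. Atp5md at day 7 stood at 0.98 in T or NK cells, 0.85 in B cells, 0.72 in plasma cells and 0.28 in macrophages. Atp5d lay above 0 at day 2, at 0.61 in epithelial cells, 0.72 in plasma cells, 0.46 in macrophages and 0.28 in T or NK cells, and below 0 at day 7, at -0.58 in T or NK cells, -0.63 in B cells, -0.46 in macrophages and -0.20 in plasma cells. The classes of a library share its preparation, so these are not separate observations.

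Those day 7 ratios went with annotated transcript length across genes. Length is the median over a gene's annotated protein-coding transcripts, which need not be the form present in these cells. By that measure Ndufs1 had 651 bases and Ndufb2 2413. Over 89 members in T or NK cells, Spearman's rho of the day 7 ratio with transcript length was -0.29, and it was -0.41 over 83 in plasma cells, -0.43 over 87 in B cells and -0.15 over 88 in macrophages. Over all genes the same values were 0.24, 0.18, 0.11 and 0.06, of the opposite sign. On the other days the members' value was -0.30 in epithelial cells at day 0. At day 2 it was 0.19 in epithelial and 0.22 in plasma cells. In the other 5 pairs it was -0.16 to 0.08, so the sign was not the same from day to day. Over all genes, day 2 gave -0.36 in epithelial, -0.29 in plasma, -0.18 in macrophage and -0.11 in T or NK cells. Day 0 gave 0.12, -0.09, 0.14 and 0.004 over all genes, in that order. A negative value means that shorter transcripts tended to have the higher pGF to SPF ratio. Median transcript lengths were 362 bases for Atp5md, 322 for Atp5k and 435 for Atp5mpl, named above as higher in pGF at day 7, and 931 for Atp5d, which was lower there. Atp5k was above 0 at the earlier days as well, in every pair but T or NK cells at day 2. The points share libraries and genes are not independent replicates, so the coefficients are descriptions. The part of length in the ratios was not tested.

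The nuclear and mitochondrially encoded subunits were set side by side for every pair. At day 2 the nuclear median was above that of the mitochondrially encoded subunits in all 4 classes: 0.24 against -0.47 in epithelial cells, 0.12 against -0.84 in macrophages, -0.03 against -0.33 in T or NK cells and 0.19 against -1.50 in plasma cells. At day 7 it was below in all 4 classes measured: 0.19 against 0.78 in macrophages, -0.16 against 0.67 in T or NK cells, 0.16 against 0.76 in plasma cells and -0.05 against 0.50 in B cells. At day 0 the mitochondrially encoded medians were 0.20 in epithelial cells, 0.20 in macrophages, 0.24 in T or NK cells and 0.13 in plasma cells. The mitochondrial share also entered the filter on cells, and the share of barcodes removed by it was 61.1% in SPF and 19.3% in pGF at day 2 and 8.05% and 6.41% at day 7.

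**Figure D5:**
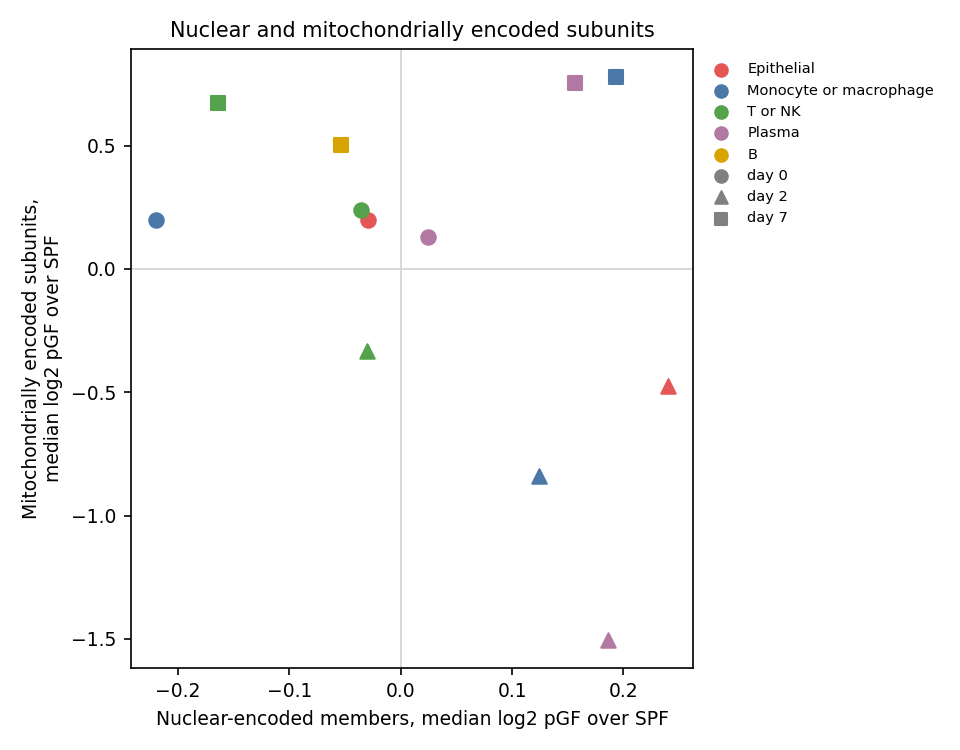
Median log2 ratio of pGF to SPF, on the (CPM + 10) scale, of the nuclear genes (horizontal axis) against that of the 13 mitochondrially encoded subunits (vertical axis); each point is 1 class (colour) on 1 day (shape). The mitochondrially encoded medians lie below the nuclear ones at day 2 (-0.47 against 0.24 in epithelial cells) and above them at day 7 (0.67 against -0.16 in T or NK cells).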

How the data were processed

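Single-cell RNA-seq was analysed from 6 libraries. Values are whole UMI counts of each gene in each barcode, not normalized, which the authors made with Cell Ranger, per the file headers; the submitters' processing notes name Cell Ranger 6.1.2, R 4.1.3, Seurat 4.1.1 and mm10. How reads shared with pseudogene copies were assigned is not given in the sources used here, so genes with such copies are less certain. Cells with at least 200 genes and at most 10% mitochondrial UMIs were kept. Cells with the highest scores against simulated doublets were removed, at 0.8% per 1000 barcodes. The rest were clustered on 2000 variable genes without the 98 members (30 components, 20 neighbours, Leiden resolution 1, seed 0), and clusters were named from marker genes.

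Counts were summed per class and library. Ratios used a pseudocount of 10 CPM, with exact conditional binomial or Poisson intervals at 95%. With 1 library per group no p-value was computed. The members, lists and markers were chosen with earlier results of these data known. Genes named per comparison are the 3 with the highest and the 3 with the lowest ratio among those whose higher library had 50 CPM and 20 UMIs or more, the leading gene of each complex, single-tissue isoforms and paralogue sets; others are marked in the text. Promoters are from RefSeq; transcript lengths are from GENCODE vM21. The scripts were tested on simulated data and used Python 3.11.15, numpy 2.4.6, scipy 1.17.1, pandas 2.3.3 and leidenalg 0.10.2. Alternatives covered scaling, totals, filters, clustering and thresholds.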

Additional observations from a re-analysis of the deposited data

How the results depend on the processing

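No paired analysis was possible because each group is 1 library, so no library could be left out either, and intervals cover counting error alone. Alternative values of summed levels moved in 205 cases and stayed the same in 232. Counts of members 1.5-fold higher in pGF moved in 22 and stayed in 26, and counts lower moved in 16 and stayed in 32. The bounds set on a median were the medians of single genes' bounds, which are wider than counting error of the median itself. Of 180 alternative values of the members' median, 175 stayed inside these bounds, which is a loose check. The other 5 were 0.18 (each cell of equal weight) and 0.20 (Car1-led cluster) in epithelial cells at day 2, -0.39 (TMM) and -0.32 (C1q-led cluster) in macrophages at day 7, and -0.16 (total without immunoglobulin, mitochondrial and haemoglobin UMIs) in plasma cells at day 7. Single clusters were tried after seeing the data. The cause of these changes was not tested. TMM moved all genes by 0.62 in macrophages at day 7, 0.23 in plasma cells at day 7 and -0.10 in T or NK cells at day 2. Counts past a fold depended on the line. The shares of all genes under the lines, scalings and totals below are not given, so the counts below cannot be set beside genes at large. At a ratio of 5 to 4, members higher in pGF were 28 in epithelial cells at day 2; 2, 18 and 27 in macrophages at days 0, 2 and 7; 4, 3 and 7 in T or NK cells; 1, 31 and 24 in plasma cells; and 7 in B cells. Members lower at that ratio were 20, 6 and 4 in macrophages, 2, 10 and 17 in T or NK cells, 4 in plasma cells at day 7 and 21 in B cells. At 2-fold, 2 were higher in macrophages at day 7 and 0 in epithelial cells, macrophages and plasma cells at day 2 and in T or NK, plasma and B cells at day 7, and 0 were lower in macrophages at day 0 and in T or NK, plasma and B cells at day 7. Under TMM, counts at 1.5-fold were 2 higher and 20 lower in macrophages at day 7, 2 higher and 2 lower in plasma cells at day 7, and 5 higher in B cells. With the total without immunoglobulin, mitochondrial and haemoglobin UMIs they were 1 higher and 7 lower in plasma cells at day 7 and 3 lower in macrophages at day 0. That total multiplied summed levels of the complexes by 2.21 to 3.19 in plasma cells and by 1.01 to 1.13 in the other classes.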
